A study of Mus musculus with 11 samples.

Results

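Interferon-stimulated genes are the genes that a cell switches on after an interferon has bound its receptor. A list of 47 of them was followed here across 11 mouse retinas, 1 library per animal, out of 37991 genes in the deposited table. The members were taken by gene symbol from a list of known interferon-stimulated genes. The rule uses no measured value, but the list was chosen with earlier results of these data known. All 47 were found and passed the filter on low counts. They were ordered by role into 9 sensors of foreign or misplaced nucleic acid, 5 transcription factors, 15 effectors, 10 modifiers (ubiquitin-like, ubiquitin and ADP-ribose enzymes and coactivators) and 8 GTPases.

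The study crossed genotype with treatment in mice killed at postnatal day 24. Wild type was strain C57Bl/6J. The rd10 mice, labelled B6.CXB1-Pde6brd10/Jrd10, carry a mutant allele of Pde6b, which encodes a subunit of the rod phosphodiesterase, and lose their rods early in life as a model of retinitis pigmentosa. Each mouse was injected intraperitoneally every day from day 9 to day 24 with saline or with GSK2879552 at 4.2 mg/kg, an inhibitor of the histone demethylase LSD1, called GSK below. The groups were wild-type saline (n = 2), wild-type GSK (n = 3), rd10 saline (n = 3) and rd10 GSK (n = 3). Saline groups had the same injection schedule, the mutation is in every cell of the animal, and the injection reaches the whole body. The labels used here name neither litter nor sex.

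As background, type I interferons bind the receptor chains Ifnar1 and Ifnar2, and the kinases Jak1 and Tyk2 then activate transcription factors, among them Stat2, which joins Irf9 in a complex that binds the interferon-stimulated response element (ISRE) in target promoters. Interferon gamma acts through Ifngr1 and Ifngr2, and its signal reaches the gamma-activated site (GAS) in promoters. In the retina both microglia and Müller glia can respond to interferon.

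Levels are given as CPM, the usual depth-scaled count (each count over its TMM-scaled library total), in the order of the replicate numbers. A change is a log2 fold change ± its standard error from an edgeR quasi-likelihood fit to all 17099 genes tested, and rose, fell or called is used only where the p, adjusted over all of those genes by Benjamini-Hochberg, was under 0.05. Libraries held from 19657030 to 28053367 counts. Some libraries stood apart. Replicate 3 of rd10 GSK had by far the lowest levels of these genes among the treated rd10 retinas, as described below. The sum of 7 lens markers was 5266 CPM for replicate 2 of rd10 GSK, 498.5 CPM for replicate 2 of wild-type saline and no more than 6.87 CPM elsewhere. Xist, the RNA that silences an X chromosome in females, did not exceed 0.338 CPM in 4 libraries (replicates 1 and 3 of rd10 GSK, replicate 2 of wild-type GSK and of rd10 saline) and reached 780.0 CPM or more in the other 7. Rod, bipolar and Müller glia markers were abundant in every library.

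Promoters were read to show what these genes share in sequence. RefSeq promoters of 250 bases before to 50 bases after the gene start (build GRCm38.p6) were at hand for 36 of the 47 members. The ISRE letters searched were GAAA, any 2 bases and GAAA again, or TTTC, any 2 bases and TTTC on the other strand. They occurred in 19 of these 36 members (52.8%) and in 1079 of 27025 genes with a promoter (3.99%). The GAS letters TTCNNNGAA, which read the same on both strands, occurred in 11 of 36 members (30.6%) against 9.55% of all genes, and 6 members held both motifs. By role, the ISRE letters were found in 5 of 5 GTPases, 5 of 6 sensors, 5 of 13 effectors, 3 of 7 modifiers and 1 of 5 transcription factors. In 15 members the match lay before the gene start. The 9 windows below were chosen to cover each role and are printed 5′ to 3′ on the gene's strand. Every ISRE match is in capitals, and GAS matches are not marked.
Isg15 (chr4:156200863-156200908, - strand): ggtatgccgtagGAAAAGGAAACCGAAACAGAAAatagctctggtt
Ifit1 (chr19:34640773-34640825, + strand): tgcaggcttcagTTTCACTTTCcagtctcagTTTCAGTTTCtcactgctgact
Oas1a (chr5:120907526-120907557, - strand): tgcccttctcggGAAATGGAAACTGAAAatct
Bst2 (chr8:71537575-71537614, - strand): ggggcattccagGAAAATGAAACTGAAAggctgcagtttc
Irgm1 (chr11:48871423-48871462, - strand): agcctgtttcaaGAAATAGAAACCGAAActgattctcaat
Gbp2 (chr3:142620592-142620625, + strand): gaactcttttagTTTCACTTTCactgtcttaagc
Stat2 (chr10:128270264-128270297, + strand): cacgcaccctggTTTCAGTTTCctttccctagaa
Rsad2 (chr12:26456551-26456584, - strand): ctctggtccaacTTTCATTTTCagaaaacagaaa
Trim30d (chr7:104507869-104507902, - strand): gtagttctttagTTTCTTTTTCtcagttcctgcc
Isg15 held 3 overlapping matches from 78 bases before its start, and Ifit1 held 2 separate matches from 104 bases before. The stretch in Oas1a began 20 bases before the start, the nearest of those printed, and that in Stat2 began 222 bases before, the farthest. The neighbouring paralogs Trim30a and Trim30d had identical windows. These matches describe letters, and whether any factor binds there was not measured.

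In rd10 retinas given saline, all 47 interferon-stimulated genes were higher than in wild-type saline, and for every one the lowest of the 3 rd10 libraries lay above both wild-type libraries. The median change was 3.72 on the log2 scale, from 1.06 for Trim25 to 8.14 for Oas1a, while the median over all tested genes was 0.02. Against that count, 21.5% of all tested genes were called higher, and 32.5% had every rd10 saline library above both wild-type saline libraries. Summed over the list, CPM went from 252.9 and 278.7 in wild-type saline to 2067, 2381 and 2395 in rd10 saline. Median changes by role were 3.89 for sensors, 2.87 for transcription factors, 3.89 for effectors, 3.15 for modifiers and 3.84 for GTPases. The transcription factors had the smallest median. The retina is a bulk sample, so more cells of a responding type and more RNA per cell cannot be told apart in any of these values. Both wild-type saline libraries are needed for the full count: 36 members were called without replicate 1 and 38 without replicate 2, where the lone library left is assumed to vary like the other groups, and 32 without the lens-bearing libraries, with all 47 still positive each time.

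**Figure D1:**
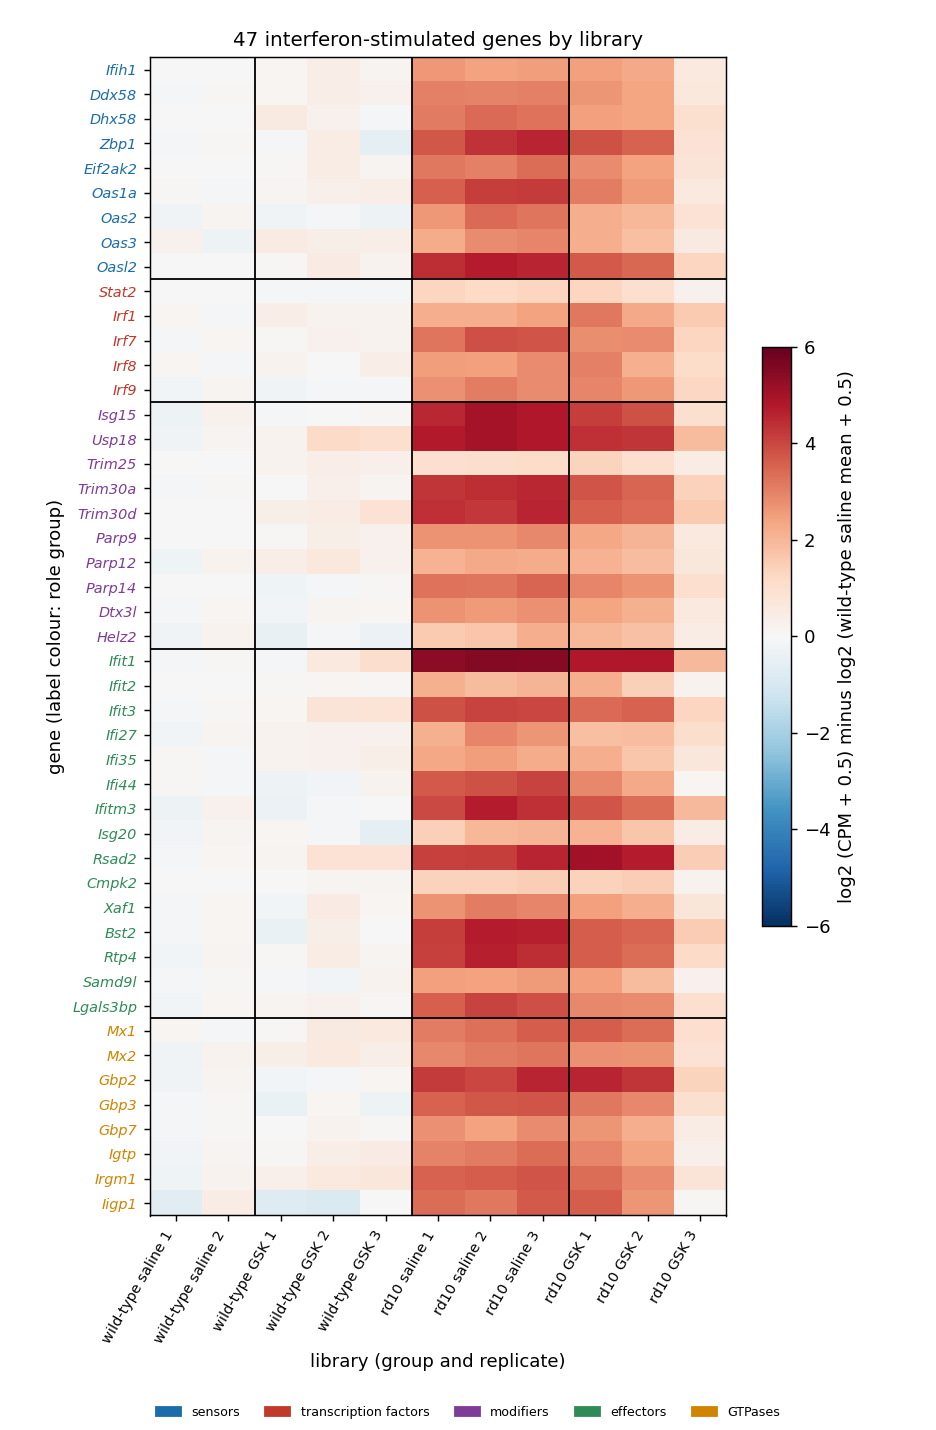
Level of each of the 47 genes (rows, label colour gives the role) in each of the 11 libraries (columns), as log2 (CPM + 0.5) minus the log2 of the wild-type saline mean + 0.5. All rd10 saline columns are red for all 47 genes, wild-type columns are pale, and the last column, rd10 GSK replicate 3, is much paler than the other rd10 GSK columns.

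Among the sensors, Oasl2 (ENSMUSG00000029561) is an oligoadenylate synthetase-like protein. It stood at 9.33 and 9.26 CPM in wild-type saline and at 209.7, 259 and 234 CPM in rd10 saline, a rise of 4.65 ± 0.72 (edgeR adjusted p = 0.00177). Ddx58, which encodes the RNA sensor RIG-I, went from 5.98 and 6.76 to 55.6, 52.7 and 55.00 CPM (3.09 ± 0.55, edgeR adjusted p = 0.00303). Eif2ak2, the kinase PKR that halts translation on double-stranded RNA, went from 4.83 and 4.52 to 46.7, 41.4 and 52.1 CPM. For these sensors every rd10 saline library lay far above the wild-type ones. Dhx58, a regulator of RIG-I signalling, rose from 1.63 and 1.62 to 17.98, 21.9 and 19.9 CPM (3.61 ± 0.47). Oas1a and Oas2, oligoadenylate synthetases that activate the nuclease RNase L, were barely detected in wild type. Oas2 was at 0.0957 and 0.263 CPM in wild-type saline and at 3.58, 6.73 and 5.84 CPM in rd10 saline. For Oas1a the wild-type saline libraries held 1 count in all, against 554 counts in rd10 saline, a ratio of 349.4 with a 95% exact interval of 62.5 to 13827 that covers counting error only. Its fitted change of 8.14 ± 1.33 rests on that 1 count. Ifih1, Zbp1 and Oas3 also rose, by 2.60 ± 0.51, 5.83 ± 1.27 and 3.89 ± 0.65. The 4 oligoadenylate synthetase genes lie on chromosome 5, as does Pde6b, and on that chromosome the mutation and strain sequence linked to it cannot be told apart. The other 43 members lie elsewhere, and members sit on 15 chromosomes in all.

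Of the transcription factors, Stat2, which acts in type I signalling, was already expressed in wild type and rose least, from 41.8 and 42.9 to 103, 98.7 and 104 CPM (1.27 ± 0.24, edgeR adjusted p = 0.00318). Irf9, the DNA-binding subunit of the ISRE complex, rose from 10.96 and 14.1 to 85.4, 108 and 93.01 CPM (2.93 ± 0.47). Irf7, which amplifies interferon production, rose most of the 5, from 6.55 and 7.81 to 70.04, 111 and 104 CPM (3.72 ± 0.51, edgeR adjusted p = 0.0008). For all of these the groups did not overlap. Irf1, an early factor that interferon gamma induces strongly, went from 5.31 and 4.52 to 24.4, 24.2 and 28.7 CPM (2.39 ± 0.44). Irf8, which microglia and other myeloid cells express, rose by 2.87 ± 0.55.

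Among the effectors, Lgals3bp, a secreted galectin-binding glycoprotein, was at 12.2 and 14.97 CPM in wild-type saline and 168, 236 and 202 CPM in rd10 saline (3.89 ± 0.58, edgeR adjusted p = 0.0014). Ifit1 (ENSMUSG00000034459), which binds viral RNA that lacks the host cap modification, rose from 1.63 and 1.93 to 95.1, 105 and 99.2 CPM (5.80 ± 1.02, edgeR adjusted p = 0.00317), the largest rise of the effectors. Ifitm3, a membrane protein that blocks virus entry, rose from 3.73 and 5.58 to 78.6, 136 and 108 CPM (4.52 ± 0.62). Its 3 rd10 saline libraries were spread widely but all lay far above wild type. Rsad2, which encodes viperin, rose from 1.20 and 1.54 to 32.03, 32.4 and 43.7 CPM (4.71 ± 1.14). Ifit2 went from 18.6 and 19.1 to 84.1, 71.5 and 78.7 CPM (2.05 ± 0.49). Ifi27 went from 2.73 and 3.51 to 15.4, 27.2 and 22.5 CPM (2.79 ± 0.31) and had the smallest adjusted p of the list, 9.06e-05 by edgeR. Ifi44 rose from 0.670 and 0.571 to 14.1, 15.5 and 17.9 CPM (4.67 ± 0.87). The remaining 8 effectors rose by between 1.44 ± 0.33 for Cmpk2, a mitochondrial nucleotide kinase, and 5.06 ± 0.82 for Rtp4. Bst2, the tetherin that holds budding virus on the cell, rose by 4.86 ± 0.72.

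Of the modifiers, Isg15 (ENSMUSG00000035692), the ubiquitin-like protein itself, rose by 5.61 ± 1.07 (edgeR adjusted p = 0.00425). Usp18, the protease that removes Isg15 and restrains the type I receptor, rose from 0.287 and 0.527 to 24.2, 28.6 and 24.9 CPM (5.96 ± 0.98). Trim25, a ubiquitin ligase that acts on RIG-I, went from 29.5 and 30.4 to 61.2, 62.2 and 64.5 CPM (1.06 ± 0.20). Parp12 went from 7.80 and 11.3 to 42.8, 48.5 and 46.1 CPM (2.26 ± 0.40), and Parp14 from 6.22 and 5.97 to 61.8, 59.7 and 74.6 CPM (3.42 ± 0.56); both are ADP-ribosyltransferases. Trim30d, a member of the mouse Trim30 cluster, rose from 0.191 and 0.220 to 14.01, 13.01 and 16.2 CPM (6.09 ± 0.79), the largest rise of the group. Its neighbour Trim30a rose by 5.10 ± 0.77, and reads could be split between such near copies. Parp9 and Dtx3l, which form a complex and lie opposite each other with shared exon sequence, rose by 2.87 ± 0.47 and 2.76 ± 0.48, and Helz2, a nuclear receptor coactivator, by 1.96 ± 0.46.

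The GTPases defend against pathogens inside the cell. Gbp2, a guanylate-binding protein, rose from 2.44 and 3.38 to 62.1, 54.4 and 81.3 CPM (4.49 ± 0.98, edgeR adjusted p = 0.00874). Irgm1, an immunity-related GTPase, rose from 4.02 and 5.66 to 61.8, 66.1 and 72.1 CPM (3.78 ± 0.73). Gbp7 rose from 7.03 and 7.77 to 51.8, 41.6 and 56.8 CPM (2.76 ± 0.59). In each case wild type and rd10 were far apart. For Mx1, a dynamin-like GTPase, wild-type saline held 2 counts and rd10 saline 357, a ratio of 112.6 (95% exact interval 30.9 to 933.3, counting error only). Mx2, Gbp3, Igtp and Iigp1 rose by 3.99 ± 0.66, 3.83 ± 0.65, 3.29 ± 0.72 and 3.85 ± 1.10. Iigp1 had the largest adjusted p of the list, 0.0255 by edgeR.

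To compare genes with each other, CPM was divided by exon length in GENCODE M21. In rd10 saline Ifitm3 was highest at 159 ± 42.4 CPM per kb (SD, n = 3), then Lgals3bp at 71.0 ± 12.0, Bst2 at 56.8 ± 11.3, Ifit3 at 49.6 ± 4.07 and Isg15 at 38.6 ± 6.45 CPM per kb. Lgals3bp and Bst2, and Bst2 and Ifit3, differed by less than the sum of their SDs. Oas3 was lowest, at 0.687 ± 0.190 CPM per kb. Isg15, Ifit1 at 37.5 ± 1.82 and Oasl2 at 36.8 ± 3.89 CPM per kb differed by less than their SDs. Exons of 9 members overlap another gene, 7 of them on the opposite strand. Whether reads were counted by strand, and how reads shared by 2 genes were assigned, is not known here. The counts of Dhx58, Irf1, Irf7, Irf9, Ifi35, Eif2ak2, Parp9, Dtx3l and Igtp could thus include reads of the other gene or lack reads of their own.

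Part of the list was lower in rd10 mice given GSK. Against rd10 saline, 8 of 47 members fell and none rose: the sensors Dhx58, Oas1a and Oas2, the transcription factor Irf7, the effectors Ifi27, Ifi44 and Lgals3bp and the modifier Trim30d. Over all tested genes 15.2% were called lower, so a share of 8 in 47 is near the background. Most members pointed down without passing the test: 45 of 47 changes were negative, with a median of -0.95 on the log2 scale against 0.01 over all genes. Without rd10 GSK replicate 3 that median was -0.50, with 9 positive changes. For 30 members all rd10 GSK libraries lay below all rd10 saline libraries, against 20.2% of tested genes. By role 3 of 9 sensors fell, 1 of 5 transcription factors, 3 of 15 effectors, 1 of 10 modifiers and 0 of 8 GTPases. Fits with other tools called more members lower, 15 with DESeq2 (14.6% of genes lower in that fit) and 26 with limma-voom (16.4%).

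How many members passed depended on single libraries. Without rd10 GSK replicate 3, 26 members fell and Rsad2 rose (0.61 ± 0.19, edgeR adjusted p = 0.0433), while 13.8% of tested genes were called lower in that fit. More members passed there although the median change was smaller in size. For Oasl2 and Lgals3bp the standard error was 0.12 and 0.13 there, below that of the reported fit given further on. Without rd10 GSK replicate 1 it was 18 members (17.9% of genes), with a median of -1.31, and without replicate 2 it was 4 (11% of genes). Leaving out any 1 library of wild-type GSK or rd10 saline left 2 to 4 (10.9% to 14.3% of genes). Without 1 or the other wild-type saline library the median stayed at -0.95. Without the lens-bearing libraries it was -1.05, with 1 positive change. With Xist as an added term 3 members fell (14.2% of genes). With scaling on inner retina genes, which moved the median of all genes to 0.35, 2 members fell (2.37% of genes), the members' median was -0.58 and 10 changes were positive. Of the 8 members that fell, Oas2 and Ifi27 did so under all 21 alternatives, Dhx58 under 15, Irf7 and Lgals3bp under 7, and Oas1a, Ifi44 and Trim30d under 6.

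**Figure D2:**
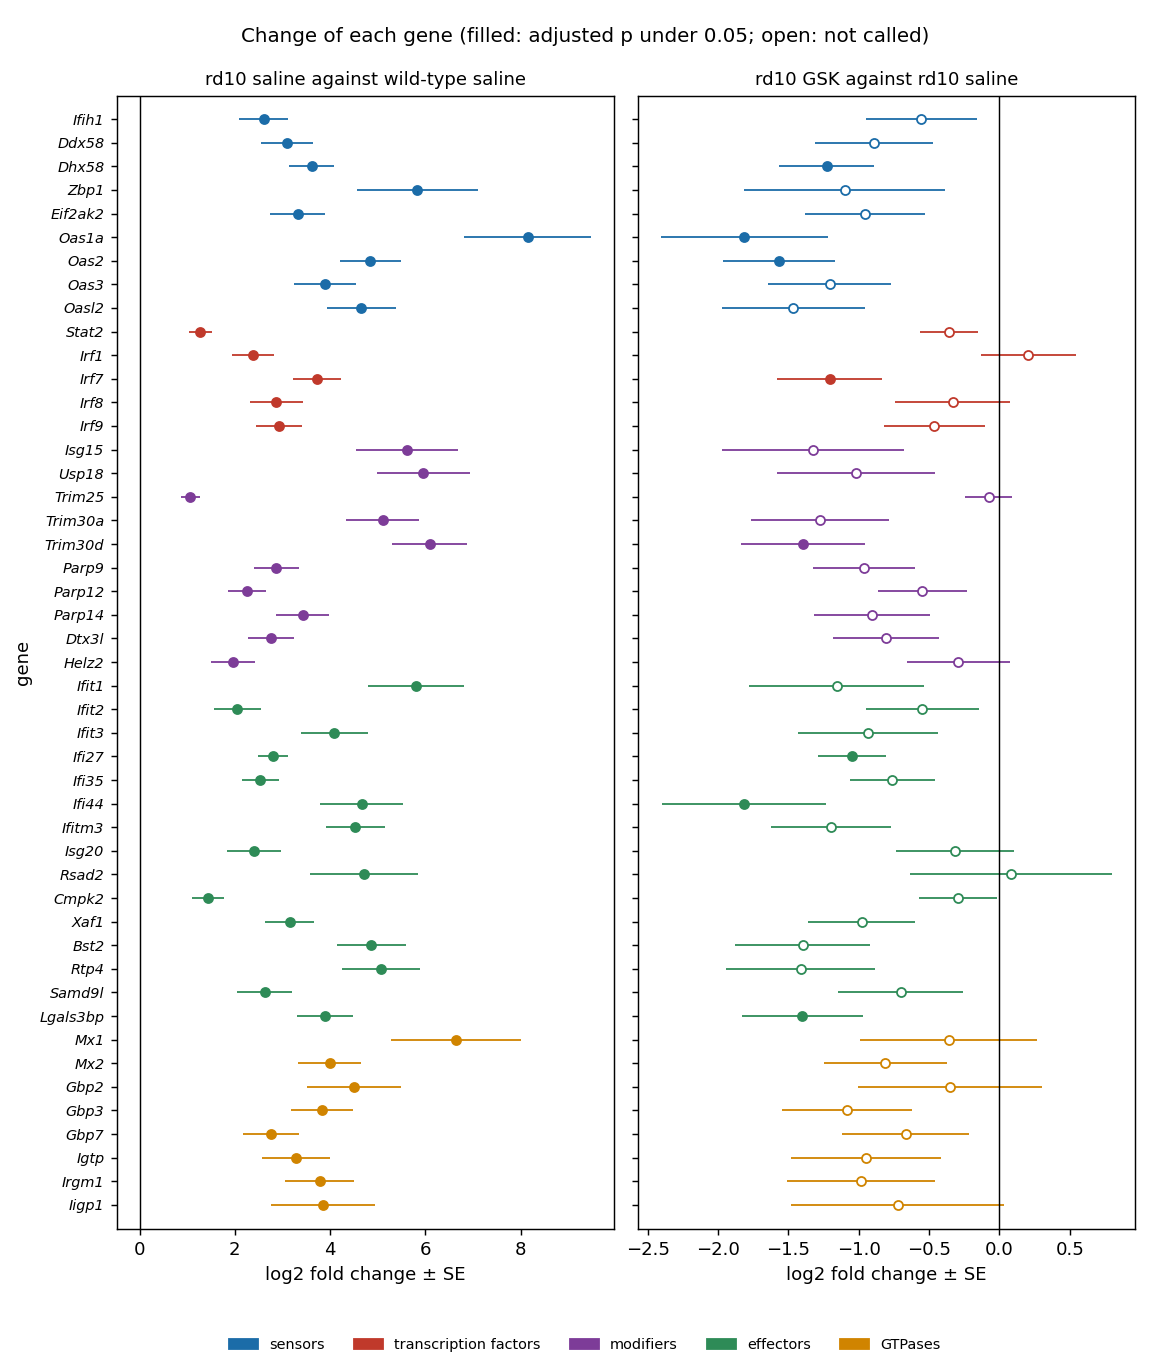
Log2 fold change (point) and standard error (bar) of each gene, at left rd10 saline against wild-type saline and at right rd10 GSK against rd10 saline, on separate horizontal axes. All 47 points at left are filled (adjusted p under 0.05); at right 8 are filled, all below 0, and Irf1 and Rsad2 lie above 0.

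The members that fell did so in every treated library. Oas2 was at 2.54, 2.17 and 0.726 CPM in rd10 GSK, below its lowest rd10 saline value of 3.58. On the log2 scale it fell by 1.56 ± 0.40, with an edgeR adjusted p of 0.0119. Oas1a was at 3.89, 2.58 and 0.299 CPM (fell by 1.81 ± 0.59, adjusted p = 0.0441). Dhx58 was at 11.2, 10.6 and 3.67 CPM (fell by 1.23 ± 0.34, adjusted p = 0.0221). For all of these sensors replicate 3 was lowest. Irf7 was at 51.8, 53.6 and 18.1 CPM (fell by 1.20 ± 0.37, edgeR adjusted p = 0.0405). Ifi27 was at 12.2, 12.4 and 6.92 CPM (fell by 1.05 ± 0.24, adjusted p = 0.00776). Ifi44 was at 7.82, 4.89 and 0.726 CPM and fell by 1.81 ± 0.58. Its replicate 3 was level with wild type, which ran from 0.404 to 0.779 CPM. Lgals3bp was at 102, 99.9 and 27.6 CPM and fell by 1.40 ± 0.43 (adjusted p = 0.041). Trim30d was at 7.94, 6.82 and 1.62 CPM and fell by 1.40 ± 0.44 (adjusted p = 0.038).

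Members that did not pass ranged from clear separation to none. Oasl2 stood at 125, 106 and 23.6 CPM in rd10 GSK, all below rd10 saline (-1.46 ± 0.51, edgeR adjusted p = 0.0627). Ifitm3 stood at 69.5, 51.6 and 19.3 CPM (-1.20 ± 0.43, adjusted p = 0.0664), and Ifit1 at 62.9, 62.8 and 8.33 CPM (-1.16 ± 0.62, adjusted p = 0.198). In these 3 genes replicate 3 was far below the other treated libraries. Ddx58 was at 42.99, 34.9 and 10.2 CPM, Eif2ak2 at 36.4, 27.4 and 8.41 CPM and Usp18 at 18.3, 17.1 and 2.86 CPM, again all below rd10 saline. Parp12 was at 42.1, 36.2 and 15.5 CPM, Parp14 at 49.8, 42.4 and 12.6 CPM and Irgm1 at 54.7, 37.5 and 8.71 CPM. These 6 genes had adjusted p from 0.124 to 0.22 by edgeR.

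Other members overlapped rd10 saline in at least 1 treated library. Rsad2 was at 61.1, 48.8 and 4.61 CPM, with replicates 1 and 2 above all rd10 saline libraries and replicate 3 far below (0.08 ± 0.72, edgeR adjusted p = 0.945). Irf1 was at 48.2, 25.3 and 15.5 CPM, with replicate 1 above every other library of the study (0.21 ± 0.34, adjusted p = 0.685). Gbp2 was at 79.9, 66.8 and 8.07 CPM (-0.35 ± 0.65, adjusted p = 0.722). Stat2 was at 103, 86.1 and 50.2 CPM, Irf9 at 99.6, 77.5 and 30.6 CPM and Trim25 at 75.3, 61.2 and 41.6 CPM. Ifit2 was at 87.1, 51.1 and 21.9 CPM and Gbp7 at 48.9, 35.3 and 10.4 CPM. In each, replicate 1 was within or above the rd10 saline range and replicate 3 was below it. Replicate 1 lay above all rd10 saline libraries for 6 members (Irf1, Irf8, Ifit2, Isg20, Rsad2 and Trim25) and replicate 2 for 2 (Rsad2 and Cmpk2).

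**Figure D3:**
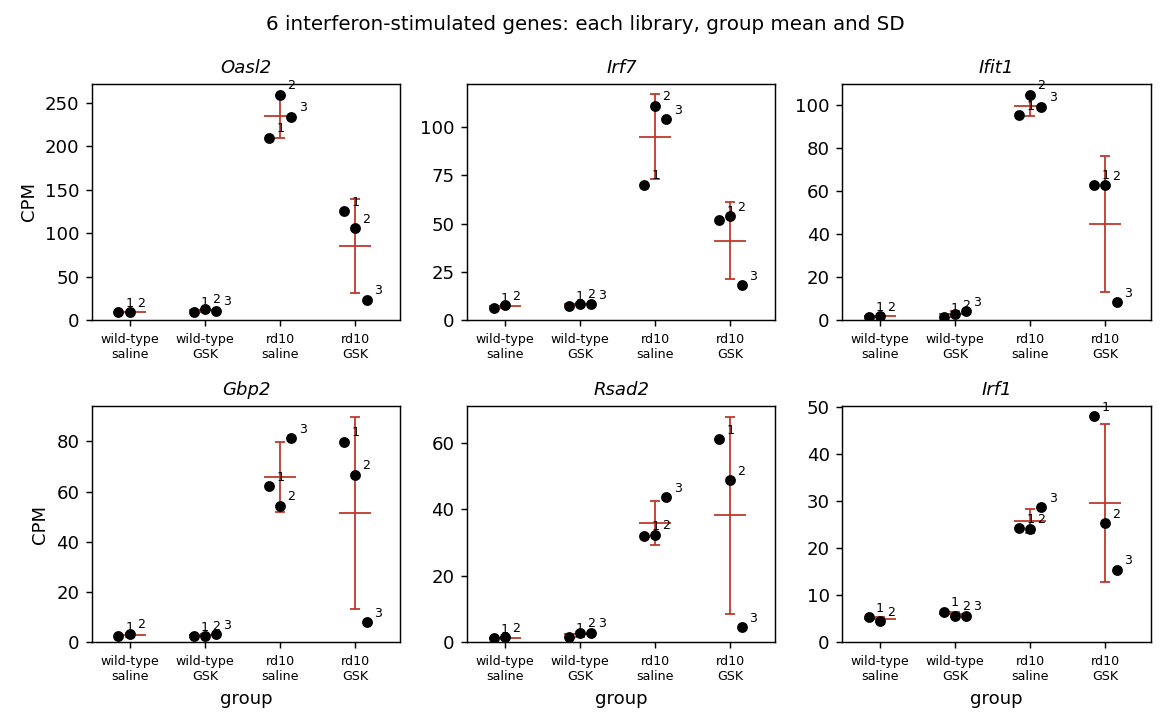
CPM of 6 members in each library (points, numbered by replicate) with the group mean and SD (red, n = 2 for wild-type saline and 3 for the others). Oasl2, Irf7 and Ifit1 have all rd10 GSK points below rd10 saline, whereas Gbp2, Rsad2 and Irf1 have only replicate 3 clearly below.

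Across the whole list the treated rd10 libraries had the widest spread of the 4 groups. Relative to the rd10 saline mean the median member was at 77.9% in rd10 GSK replicate 1, 59.9% in replicate 2 and 17.95% in replicate 3. Over all tested genes these medians were 101%, 99.5% and 98.9%. Over the 1475 genes, members included, that rose at least 2-fold between wild-type and rd10 saline, they were 88.9%, 66.9% and 49.1%. Replicate 3 was the lowest of the treated rd10 libraries for all 47 members, below every rd10 saline library for all 47, and above every wild-type library for 44 (not Ifi44, Igtp and Iigp1). Among the 1475 genes replicate 3 was lowest for 80%, and among all tested genes for 36.7%. The summed level was 1807, 1483 and 469.8 CPM in replicates 1 to 3. The median coefficient of variation of the members was 61.1% in rd10 GSK, against 12.1% in rd10 saline, 15.4% in wild-type GSK and 13.4% in wild-type saline. In replicate 3 the least reduced member was Trim25, at 66.5% of the rd10 saline mean, and the most reduced was Oas1a, at 3.74%.

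**Figure D4:**
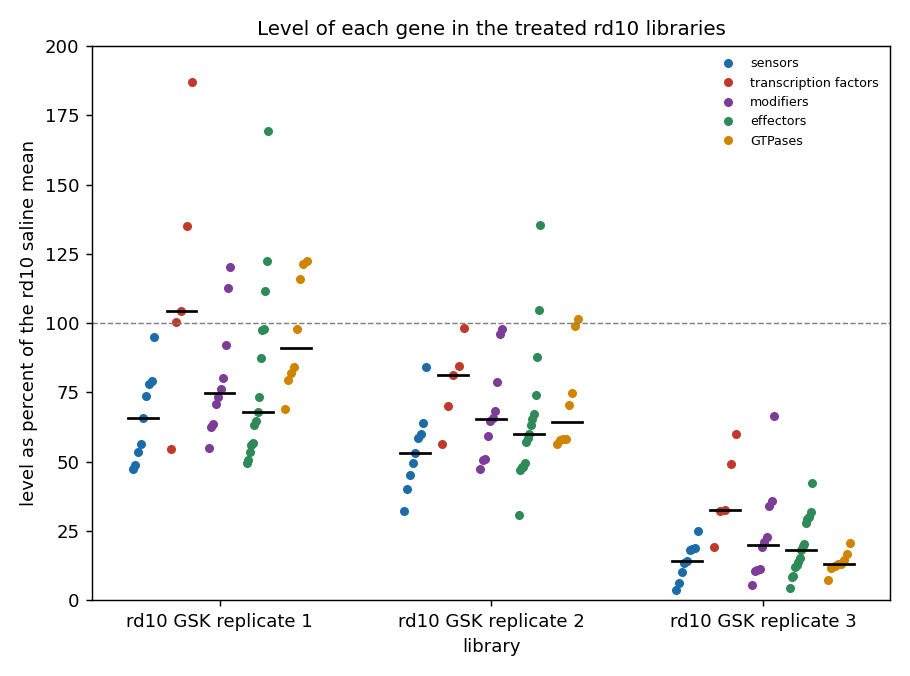
Level of each member in each rd10 GSK library, as percent of its rd10 saline mean (dashed line at 100), by role; black bars are role medians. Points run from 47.2% to 187% in replicate 1 and from 3.74% to 66.5% in replicate 3, where no member reaches the dashed line.

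Markers of retinal cells also changed between the groups, some with the list and some against it, and their part in the result was not tested. The 10 microglia markers summed to 81.3 to 88.0 CPM in wild type and to 396.8, 440.0 and 472.7 CPM in rd10 saline. They summed to 255.8, 180.8 and 129.5 CPM in rd10 GSK. All 10 rose in rd10 saline, where 21.5% of tested genes were called higher. With GSK 9 of 10 fell, all but Itgam, where 15.2% of tested genes were called lower. The markers Cx3cr1 and Csf1r fell by 1.02 ± 0.28 and 1.20 ± 0.22, and 7 to 10 of the 10 fell under every alternative. The 5 rod markers summed to 7500 to 9170 CPM in rd10 saline, to 23140, 37127 and 44914 CPM in rd10 GSK, and to 53409 to 58653 CPM in wild type. The 5 Müller glia markers summed to 4615 to 5259 CPM in wild type, 5920 to 6868 CPM in rd10 saline and 2689, 3203 and 4577 CPM in rd10 GSK, where replicate 3 was highest. The 4 bipolar cell markers all rose in rd10 saline and all fell with GSK, against 21.5% and 15.2% of tested genes. Their sums were 977 to 1037 CPM in wild type, 1318 to 1336 CPM in rd10 saline and 919, 869 and 881 CPM in rd10 GSK. So the library with the lowest interferon-stimulated level had the highest rod sum and the lowest microglia sum of the treated rd10 retinas. Of the 6 monocyte and border macrophage markers, Ly6c2, F13a1 and Mrc1 rose in rd10 saline, against 21.5% of tested genes. Ly6c2 passed the filter only through rd10 saline libraries and Cd163 only through rd10 GSK libraries, which favours higher values there. With GSK none was called by edgeR (3 at unadjusted p under 0.05) and 4 of 6 changes were positive. Ccr2, the receptor of circulating inflammatory monocytes, was at 4.36, 4.89 and 8.88 CPM in rd10 saline and at 11.2, 0.461 and 0.0854 CPM in rd10 GSK, so that replicate 1 was highest and replicates 2 and 3 were below rd10 saline. Cd163, a marker of border macrophages, was at 0, 0.231 and 0.324 CPM in rd10 saline and at 0.462, 0.415 and 0.939 CPM in rd10 GSK, all higher. The 6 markers summed to 25.7 to 37.9 CPM in rd10 saline and 29.6 to 41.0 CPM in rd10 GSK, of which Lyve1 alone held 19.8 to 25.7 CPM. The T cell markers Cd3d, Cd3e and Cd3g were each at or under 0.369 CPM in all libraries. The 8 T and NK cell markers summed to 0.878 to 2.515 CPM in wild type, 3.01 to 3.83 CPM in rd10 saline and 2.05 to 2.81 CPM in rd10 GSK. Only Cd4, Cd8a and Gzmb passed the filter. Cd4 and Gzmb passed it only through their rd10 saline levels, which favours a rise there and a fall with GSK. Calls of these markers are therefore not read here. Gzmb was at 0.480, 0.554 and 0.487 CPM in rd10 saline and at 0.193, 0.0461 and 0 CPM in rd10 GSK.

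**Figure D5:**
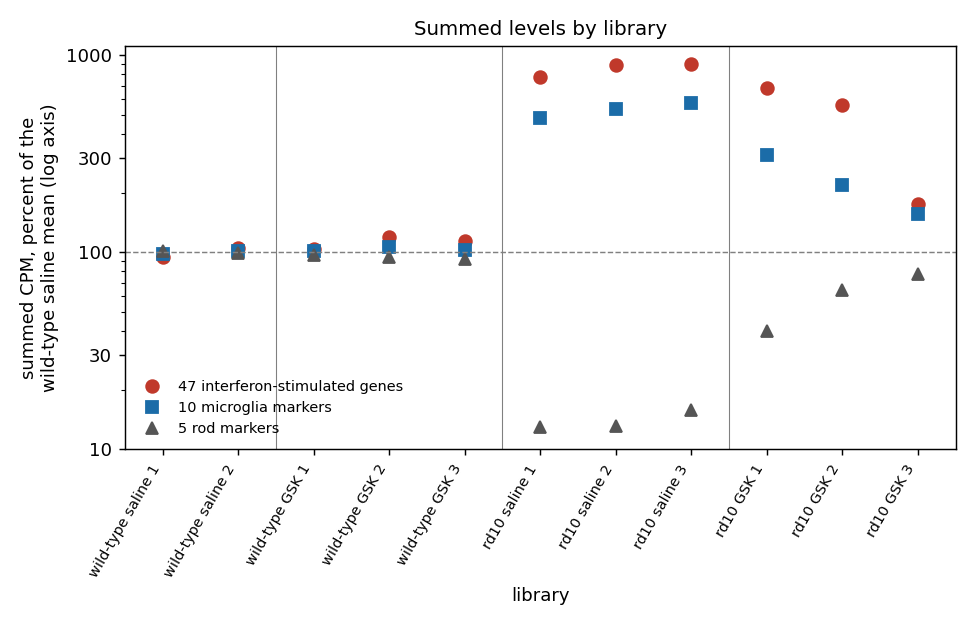
Summed CPM of the 47 genes, the 10 microglia markers and the 5 rod markers in each library, as percent of the wild-type saline mean on a log axis. In rd10 GSK replicates 1, 2 and 3 the interferon-stimulated sum stands at 680%, 558% and 177%, the microglia sum at 310%, 219% and 157% and the rod sum at 39.9%, 64.1% and 77.5%.

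Treated rd10 retinas were still above wild type. Against wild-type saline 45 of 47 members were higher, with a median of 2.54 (14.1% of tested genes were called higher). The exceptions were Ifit2 (edgeR adjusted p = 0.0593) and Iigp1 (adjusted p = 0.0746). Against wild-type GSK all 47 were higher, with a median of 2.32 (15.4% of tested genes). The rd10 GSK libraries did not overlap wild-type saline for 46 members (27% of tested genes) and wild-type GSK for 45 (22.8%). All of these comparisons share libraries with those above. The first rested on few libraries: 1 member (Irf1) was called without wild-type saline replicate 1, 4 (Oas2, Irf1, Ifi27 and Trim30d) without replicate 2, 28 without rd10 GSK replicate 1 and none without the lens-bearing libraries, with 38 members at unadjusted p under 0.05 in that last fit. All 47 changes were positive in each of these fits, whose shares of all tested genes called are not given here.

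In wild-type mice no member passed the test with GSK in the reported fit, though most changes were positive. None of 47 members was called by edgeR, DESeq2 or limma-voom, with 0, 1 and 0 members at unadjusted p under 0.05, and 0.532% of tested genes were called in either direction. Changes were positive for 35 members, with a median of 0.25 against -0.002 over all genes. For 19 members all wild-type GSK libraries lay above both wild-type saline libraries, and for 1 all lay below. The share of all tested genes with such a separation is not given here. The largest change rested on few counts. Oas1a was at 0.0478 and 0 CPM in wild-type saline and 0.0808, 0.150 and 0.183 CPM in wild-type GSK (2.33 ± 2.35, edgeR adjusted p = 0.905), which is 11 counts in the 2 groups together. In wild-type GSK Usp18 was at 0.566, 1.54 and 1.33 CPM, Ifit1 at 1.58, 2.93 and 4.22 CPM and Rsad2 at 1.58, 2.89 and 2.89 CPM. For Usp18 and Rsad2 these lay above both wild-type saline libraries, and for Ifit1 they overlapped. When only the 2 wild-type groups were fitted, 43 members could be fitted and 10 were at unadjusted p under 0.05. Trim25 and Irgm1 were called higher there, near the 3.53% of all genes called higher in that fit. Without rd10 GSK replicate 3, 12 members were at unadjusted p under 0.05 and none was called by edgeR. In the reported fit the spread is pooled over all groups, so the rd10 GSK libraries enter its p-values.

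The genotype by treatment interaction asks whether GSK changed a gene differently in rd10 than in wild type. No member was called by edgeR or limma-voom, with 4 and 2 members at unadjusted p under 0.05, and 12.5% of tested genes were called. DESeq2 called Dhx58, Ifi27 and Trim30d, all with a more negative change in rd10, and 14 members were at unadjusted p under 0.05. In that fit 6.63% of tested genes were called in that direction, so 3 in 47 is near the background. The estimate was negative for 45 of 47 members, with a median of -1.18. Without rd10 GSK replicate 3 the median was -0.76 and 6 estimates were positive. Ifi27 came closest by edgeR, at -1.32 ± 0.39 (adjusted p = 0.0553). In the fit without rd10 GSK replicate 3, 16 members were called, all with a more negative change in rd10, against 5.58% of tested genes called in that direction.

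The pathway around these genes was read from a list of 41 further genes, of which 33 passed the filter. In rd10 saline 23 were higher than in wild-type saline and 3 were lower (Ifngr1, Irf3 and Sirpa), where 21.5% and 19% of all tested genes were called in these directions. With GSK in rd10, 4 rose (Jak2, Mavs, Myd88 and Irf3) and 6 fell (Ifngr2, Il10rb, Tlr7, Tlr9, Unc93b1 and Adar), against 17.6% and 15.2% of tested genes. None was called in wild-type GSK by edgeR. Median changes over the 33 were 1.31 and -0.12 in the first 2 comparisons.

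Interferon transcripts themselves were at the edge of detection. The table held 11 interferon genes with a name, and 4 of them had any count, 19 counts in all. The 5 wild-type libraries held 0, which allows up to 3 counts or 0.113 to 0.144 CPM per library, and counting error is all that this limit covers. The rd10 saline libraries held 7, 3 and 4 interferon counts and the rd10 GSK libraries 4, 1 and 0. Ifnb1, which encodes interferon beta, had 5, 2 and 2 counts in rd10 saline and 1, 0 and 0 in rd10 GSK. Ifng, interferon gamma, had 1, 0 and 0 counts in rd10 saline and 3, 1 and 0 in rd10 GSK. No test was made on so few counts, and a cell source cannot be read from them.

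Of the receptor chains, Ifnar1 was at 56.01 to 66.7 CPM in wild type and did not pass the test (-0.00 ± 0.08, edgeR adjusted p = 0.982). Ifnar2, its partner, rose from 4.35 and 6.06 to 11.7, 13.7 and 13.6 CPM (1.31 ± 0.22, adjusted p = 0.000668) and stood at 12.7, 9.18 and 7.17 CPM in rd10 GSK. Ifngr1 fell slightly (-0.22 ± 0.08, edgeR adjusted p = 0.048), a call lost when any of several single libraries was left out. Ifngr2 rose by 0.36 ± 0.09 and fell with GSK in rd10 by 0.30 ± 0.08 on the log2 scale, but the latter change was 0.048 under inner retina scaling. Ifnlr1, the receptor of interferon lambda, rose by 2.06 ± 0.44, and Il10rb, its partner, by 1.32 ± 0.21. Il10rb fell with GSK by 0.64 ± 0.17 (adjusted p = 0.0154).

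The called pathway genes of largest change in rd10 saline were Tlr7, Tlr9 and Ptpn6. Tlr7, an endosomal sensor of single-stranded RNA, was at 0.287 and 0.176 CPM in wild-type saline, 0.444, 0.263 and 0.458 CPM in wild-type GSK, 6.37, 6.04 and 7.42 CPM in rd10 saline (4.82 ± 0.49) and 3.12, 1.84 and 1.02 CPM in rd10 GSK, a fall of 1.72 ± 0.31 (adjusted p = 0.00166). Tlr9, the endosomal sensor of unmethylated DNA, rose by 3.84 ± 0.72 and stood at 1.85, 1.11 and 0.214 CPM in rd10 GSK after 2.75, 2.72 and 4.54 CPM in rd10 saline (-1.64 ± 0.49, edgeR adjusted p = 0.0249). Ptpn6, a phosphatase of blood-derived and microglial cells that dampens signalling, rose from 0.861 and 1.45 to 8.47, 12.3 and 12.9 CPM (3.27 ± 0.59) and stood at 10.98, 4.84 and 2.69 CPM in rd10 GSK.

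A few pathway genes were singled out after their values were seen. Socs3, a feedback inhibitor of Stat3 signalling, was at 40.1, 35.7 and 28.4 CPM in rd10 saline and 112, 63.3 and 21.2 CPM in rd10 GSK. Stat3 was at 265, 248 and 236 CPM in rd10 saline and 375, 317 and 219.5 CPM in rd10 GSK. For both, rd10 GSK replicate 1 was the highest library of the study. Irf3, the constitutive factor that starts interferon transcription, went the other way from the list. It was at 50.95 and 55.3 CPM in wild-type saline, 29.98, 36.03 and 35.8 CPM in rd10 saline and 44.1, 44.04 and 51.7 CPM in rd10 GSK (-0.65 ± 0.10 and 0.46 ± 0.09 in the first 2 comparisons).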

How the data were processed

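Total RNA of 11 right-eye retinas was sequenced as stranded polyA libraries, per the labels' protocols. The authors deposited 1 table of raw read counts per gene, with 37991 Ensembl genes. Reads were converted with bcl2fastq, aligned with HISAT2 2.1.0 and counted with HTSeq, and edgeR was used, per the submitters' processing notes, with NCBIM37 and mm9 as builds. Which HTSeq version, strand option and annotation were used is not given in the sources used here. Names came from GENCODE M21 by Ensembl identifier (32919 matched, 5072 did not and held 0.627% of counts).

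In edgeR 4.0.16 (R 4.3.3), filterByExpr at its settings of 10 counts and a total of 15 kept 17099 genes, and TMM scaled the libraries. A quasi-likelihood fit with 1 coefficient per group over all 11 libraries gave 6 comparisons, each adjusted by Benjamini-Hochberg over all tested genes at 0.05. The common biological coefficient of variation was 0.129. The code was tested on simulated data. Alternatives were DESeq2 1.42.0, limma-voom (limma 3.58.1), DESeq2 size factors, other filters, only the compared groups, Xist as a term, a replicate block, and leaving out libraries. Inner retina scaling was added after seeing the data.

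Values in every library are printed for the 3 most abundant members of each role, members whose call or direction differs from most of their role, and Ifit1, Usp18 and Rsad2; for the pathway, for the receptors, the ligands and the 3 called genes of largest change. Some genes that this rule names are not reported here. The members, lists and tests were chosen with earlier results of these data known. Each library is 1 animal, so p-values measure the spread between animals, pooled over all groups of the fit. The wide spread of rd10 GSK thus enters the p and standard error of every reported comparison, also those without rd10 GSK libraries. No replicate number marks a shared litter or day in the labels. Raw reads were not analysed here.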

Additional observations from a re-analysis of the deposited data

Results flagged for a closer look

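No member was flagged. In the pathway list the effect of GSK differed between the genotypes for 2 of 33 tested genes by the interaction test. Over all tested genes 12.5% were called, so this count is not above the background. Tlr7 changed by -2.45 more in rd10 than in wild type on the log2 scale (edgeR adjusted p = 0.0379), a call lost under 10 alternatives, among them limma-voom and leaving out either wild-type saline library. Irf3 changed by 0.57 more in rd10 than in wild type (edgeR adjusted p = 0.0148). It missed the threshold when wild-type saline replicate 2 alone, or both libraries with lens transcripts, were left out. Groups held 2 or 3 libraries, too few for a test of single outlying samples.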

How the results depend on the processing

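With 21 alternatives, all 47 changes in rd10 saline against wild-type saline kept their direction. From 43 to 47 members were called where both wild-type saline libraries were kept (13.7% to 23.4% of genes higher), and fewer where 1 was left. With GSK in rd10, 8 members fell in the reported fit (15.2% of tested genes), 15 with DESeq2 (14.6%) and 26 with limma-voom (16.4%). The number was 2 with no low-count filter (9.21%) and 2 with only the compared groups fitted (9.94%). Xist as a term gave 3 (14.2%) and inner retina scaling 2 (2.37%). Leaving out single rd10 or wild-type GSK libraries gave 2 to 26 lower (10.9% to 17.9%), and Rsad2 higher without rd10 GSK replicate 3. In wild-type GSK the count went from 0 to 2 with only the compared groups fitted (3.53% of genes higher). For the interaction it was 0 in the reported fit, 3 with DESeq2 (6.63% of genes lower) and 0 to 16 when single libraries were left out. For rd10 GSK against wild-type saline it was 45 in the reported fit, 15 with limma-voom, 2 with only the compared groups, 0 without the lens-bearing libraries and 1 to 47 without single libraries. Against wild-type GSK it was 47, then 27 with only the compared groups, 20 without the lens-bearing libraries and 28 to 47 without single libraries. Ifngr2 in rd10 GSK against rd10 saline turned to 0.048 under inner retina scaling (edgeR adjusted p = 0.682). The cause of these shifts was not tested. In the reported fit 14.1% and 15.4% of tested genes were higher in rd10 GSK than in wild-type saline and wild-type GSK. Shares in the alternative fits of these comparisons are not given here. A loss of calls in the list thus cannot be told from a loss over all genes. Correlations of same-numbered libraries' deviations from their group means ran from -0.19 to 0.39, and not every pair was over 0.1, so the numbers were not taken to pair the libraries. With the replicate block 4 members fell with GSK in rd10 (14.7% of genes lower) and 1 member was called for the interaction (4.08% of genes lower). Of the values of single genes under alternatives, 4292 kept their call or lack of one, 420 lost a call, 67 gained one and 1 called value reversed. Values called in neither fit are among the 4292 whatever their sign, so a change of sign there was not counted. Wild-type saline held 2 libraries, and this number and depth limit low genes such as Oas1a.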
